A study of Mus musculus with 9 samples.

Results

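Cdh16, Pax2, Pax8, Emx2 and Lhx1 are genes of kidney and mesonephric epithelium, and they were examined here in cultured fetal mouse ovary as possible readouts of attached mesonephric tissue. The members were taken by gene symbol, and all 5 were found among the 23420 genes of the count tables. They were chosen by symbol with earlier results of these data in view, which held the fold change of Cdh16 between bone morphogenetic protein 2 (BMP2) and vehicle. The comparison of BMP2 with vehicle is therefore given for all 5 as a description, without a test, and Cdh16 is described without a test throughout.

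Ovaries of wild-type CD1 mouse embryos collected at embryonic day 16 were kept for 24 hours on culture inserts, in medium without phenol red, with recombinant human BMP2 at 50 ng/ml, with estradiol-17β (E2) at 3.67 µM, or with vehicle. Each group has 3 RNA libraries, which gives 9, with 30418674 to 34320077 counts in genes per library. The group of a library was read from its title, where the prefix B2 was read as BMP2 and the prefix C as vehicle. The labels do not tie replicate libraries to separate animals or cultures, and the p-values below then describe the spread among libraries, which may be technical. That spread was estimated for each gene with help from the other genes tested. The labels used here do not say whether the mesonephros was dissected away.

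The mesonephros is a transient kidney that lies against the embryonic gonad. Its tubules and duct arise from intermediate mesoderm under the paired-domain factors PAX2 and PAX8, which act in part redundantly in mice, and under the LIM-homeodomain factor LHX1, which acts in the duct epithelium. EMX2 is a homeodomain factor that the mouse urogenital tract needs, and its gene is also expressed in the epithelium that covers the early gonad. CDH16, or kidney-specific cadherin, is an adhesion protein of renal tubule and thyroid epithelium. In females the mesonephric duct and tubules mostly regress, and the Müllerian duct, which becomes oviduct and uterus, uses several of the same transcription factors.

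The 5 genes differed widely in level and did not move together. Emx2 was abundant in all groups and fell slightly with E2, while its antisense neighbour Emx2os rose. Pax8 was present at a moderate to low level and did not pass the test in either comparison in which it was tested. Pax2 and Lhx1 had 14 counts or fewer in every library. Cdh16 was low everywhere and lower in the BMP2 libraries than in the others.

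Levels are given as CPM, gene counts relative to library size after scaling by the trimmed mean of M-values (TMM), and levels of different genes are compared per kb of exon. Per kb of exon, Emx2 averaged 42.3 ± 0.486 CPM with BMP2, 38.8 ± 1.79 with E2 and 42.2 ± 0.764 with vehicle (SD, n = 3 each). Pax8 followed at 0.948 ± 0.125 CPM per kb with BMP2, 0.953 ± 0.0561 with E2 and 0.887 ± 0.0173 with vehicle. Cdh16 came next with 0.124 ± 0.0447 CPM per kb with BMP2, 0.249 ± 0.0578 with E2 and 0.310 ± 0.0391 with vehicle. Lhx1 (0.0623 CPM per kb over all libraries) and Pax2 (0.0567) were last, and these neighbours in the order did not differ beyond their spread.

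**Figure D1:**
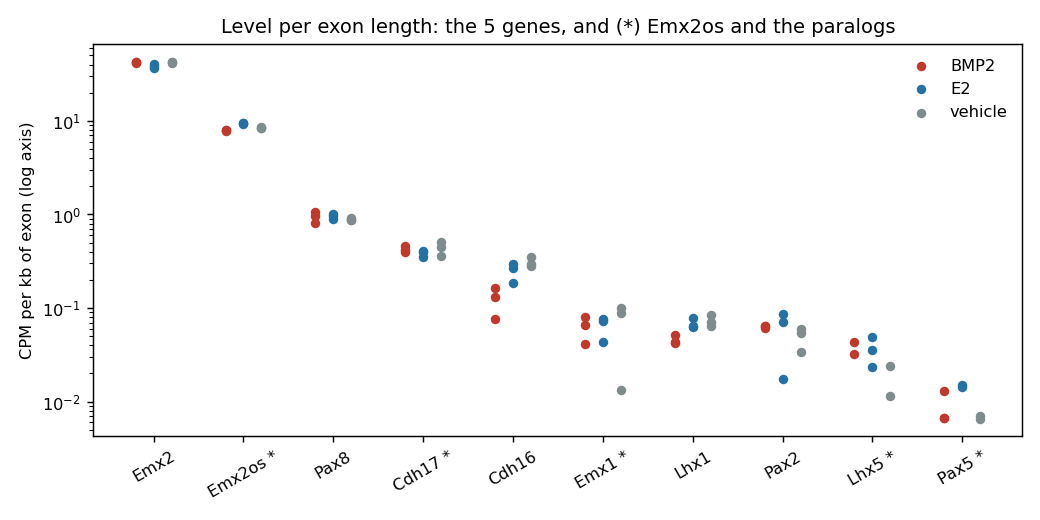
CPM per kb of exon on a log axis for the 5 genes, for Emx2os and for the closest paralogs of the members (both marked with an asterisk), 1 point per library and libraries with 0 counts not drawn. Emx2 lies above all other genes shown, and Pax2 and Lhx1 lie near the paralog Emx1.

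The closest paralogs were set beside the members on the same scale, with their counts over the 9 libraries to show the depth. Emx1, a forebrain relative of Emx2, averaged 0.0646 CPM per kb over all libraries (41 counts), Lhx5, the closest relative of Lhx1, 0.0244 CPM per kb (19 counts) and Pax5, of the same PAX subfamily as Pax2 and Pax8 and known from B cells and the midbrain, 0.00769 CPM per kb (20 counts). Pax2 rested on 90 counts and Lhx1 on 74 counts over the same libraries, and per kb both lay near Emx1. Cdh17, an intestinal cadherin related to Cdh16, averaged 0.416 CPM per kb (548 counts), and Cdh16 itself 0.228 CPM per kb (251 counts).

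The tissue label was checked with ovarian genes. Kitl, whose product from supporting cells binds KIT on oocytes, averaged 1015 ± 7.51 CPM with BMP2, 776 ± 4.90 with E2 and 977 ± 29.2 with vehicle. Dazl, an RNA-binding protein gene of germ cells, averaged 365 ± 4.596 CPM with BMP2, 365 ± 5.28 with E2 and 375 ± 17.6 with vehicle. Amhr2, the receptor gene for anti-Müllerian hormone, averaged 289 CPM with BMP2, 298 with E2 and 300 with vehicle. Nobox, an oocyte transcription factor gene, was named for the smallest p of this list with BMP2. It rose with BMP2 (log2 fold change 0.55 ± 0.074, adjusted p = 7.94e-10, edgeR) and with E2 (0.64 ± 0.074, adjusted p = 4.33e-13, edgeR). These changes do not bear on the tissue label. Genes known from differentiated kidney tubules ranged from near 0 to well detected. Over 9 libraries the proximal tubule genes Slc34a1 and Slc22a6 had 4 and 2 counts, Umod, of the loop of Henle, had 7, and Hnf4a, a regulator of proximal tubule, had 3, all in 1 E2 library. Wnt9b, a signal of the mesonephric duct, had 57 counts. Calb1, Spp1, Lrp2, Aqp1 and Pkhd1, of the same list as Slc34a1, Slc22a6 and Umod, had 17177, 7281, 4162, 3859 and 1525 counts. The collecting duct regulator Tfcp2l1, of the same list as Hnf4a and Wnt9b, had 12288. Slc34a1, Slc22a6, Umod, Hnf4a, Wnt9b, Aqp1 and Pkhd1 were chosen after their values were seen. These nephric genes thus gave no single reading of tubule RNA, and the 5 members are called here by their names and not as a measure of tubules or duct.

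Pax2 lies on chromosome 19 from 44756045 to 44837871 on the plus strand of GRCm38, which is mm10, and spans 11 exon blocks. It had 12, 11 and 12 counts in the BMP2 libraries, 14, 3 and 12 in the E2 libraries and 11, 9 and 6 in the vehicle libraries. The second E2 library was the lowest of all and the first E2 library the highest, so the E2 group spanned both other groups. In CPM, Pax2 averaged 0.343 ± 0.0128 with BMP2, 0.312 ± 0.192 with E2 and 0.266 ± 0.0716 with vehicle. In BMP2 against vehicle the log2 fold change was 0.36 ± 0.43 (SE, no test), and the groups did not overlap, as for 28.0% of all genes tested. In edgeR's quasi-likelihood test with Benjamini-Hochberg adjustment, Pax2 did not pass with E2 against vehicle (log2 fold change 0.22 ± 0.45, adjusted p = 0.768) or with BMP2 against E2 (0.14 ± 0.42, adjusted p = 0.850). The 95% interval for E2 against vehicle ran from -0.68 to 1.11, a range that the low counts left wide.

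Pax8 lies on chromosome 2 from 24420560 to 24475599 on the minus strand, and 6.06% of its exon bases are shared with Gm13415, a noncoding gene on the other strand. Gm13415 is not among the genes of the count tables. It had 200, 216 and 170 counts in the BMP2 libraries, 178, 191 and 171 in the E2 libraries and 182, 164 and 178 in the vehicle libraries. The BMP2 libraries held both the highest and the lowest CPM, 6.44 and 4.94, and the 3 groups overlapped. Pax8 averaged 5.74 ± 0.757 CPM with BMP2, 5.78 ± 0.340 with E2 and 5.38 ± 0.105 with vehicle. The log2 fold change in BMP2 against vehicle was 0.094 ± 0.10 (SE, no test). Pax8 did not pass with E2 against vehicle (log2 fold change 0.10 ± 0.10, adjusted p = 0.494, edgeR) or with BMP2 against E2 (-0.0093 ± 0.10, adjusted p = 0.962, edgeR). The 95% intervals were -0.10 to 0.31 for E2 against vehicle and -0.21 to 0.19 for BMP2 against E2. The interval for E2 against vehicle thus held no fall beyond 0.10 and no rise beyond 0.31 on the log2 scale.

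Lhx1, on chromosome 11 from 84518284 to 84525535 on the minus strand, had the fewest counts of the members and did not pass the filter on low counts, so it was left out of the main test. It had 6, 7 and 6 counts in the BMP2 libraries, 8, 10 and 8 in the E2 libraries and 10, 8 and 11 in the vehicle libraries. All BMP2 libraries lay below all others in CPM (0.174 to 0.209 with BMP2, 0.253 to 0.317 with E2 and 0.259 to 0.340 with vehicle), and E2 overlapped vehicle. Among all genes tested, groups did not overlap for 28.0% in BMP2 against vehicle and for 39.6% in BMP2 against E2. The sums over 3 libraries were 19 counts with BMP2 (95% Poisson interval 11.4 to 29.7), 26 with E2 (17.0 to 38.1) and 29 with vehicle (19.4 to 41.7), and these intervals, which cover counting error only, overlapped. Fitted without the filter, over 20818 genes, Lhx1 had a log2 fold change of -0.66 ± 0.52 (SE) in BMP2 against vehicle (no test) and did not pass in E2 against vehicle (-0.096 ± 0.49, adjusted p = 0.934, edgeR) or BMP2 against E2 (-0.57 ± 0.53, adjusted p = 0.526, edgeR). Its antisense neighbour Lhx1os, listed under an older symbol, had 24 counts over 9 libraries.

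Emx2 lies on chromosome 19 from 59458372 to 59465357 on the plus strand. Emx2os, a noncoding antisense gene, lies on the minus strand from 59425104 to 59458635. In this annotation, GENCODE vM21, the starts of both genes overlap over 264 exon bases, 8.79% of those of Emx2 and 5.26% of those of Emx2os. The libraries were made with a kit that does not mark strand, so reads from bases that both genes share cannot be given to one gene or the other. The annotation behind the counts is not given, so whether the genes shared bases when reads were counted is not known. The sequence around the annotated start of Emx2os is shown because Emx2, the only member that changed in a test, lies across it in GENCODE. RefSeq places its own start of Emx2 at 59458690, which is 55 bases past the GENCODE start of Emx2os, and with that start Emx2 does not reach it. The 30 bases below are chr19:59458621-59458650 of GRCm38.p6 on the plus strand, from the RefSeq promoter table, and the capitals mark the first 15 bases of the Emx2os exon.
Emx2: GCACTTTAAAGAGTCtccccccttccacct

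With E2, Emx2 fell and Emx2os rose. Emx2 stood at 111, 117 and 122 CPM in the E2 libraries, against 128, 124 and 128 CPM in the vehicle libraries. Every E2 library was below every vehicle library, and groups did not overlap for 41.2% of all genes. The first E2 library was the lowest. The mean was 117 ± 5.36 CPM with E2 and 127 ± 2.29 CPM with vehicle (SD, n = 3 each), 1.09-fold lower with E2 (log2 fold change -0.12 ± 0.027 SE, adjusted p = 0.000107, edgeR). Of the 3 members tested in this comparison, Emx2 alone passed, beside 32.3% of all genes, so the share of members was near the background. Without the first E2 library the log2 fold change was -0.085 (adjusted p = 0.0189, edgeR). Against counting error alone, Emx2 counts had a chi-square of 14.99 within E2 and 2.424 within vehicle (2 degrees of freedom each). The p-values of Emx2 rest in part on the spread of other genes and not on these libraries alone.

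Emx2os stood at 46.0, 48.1 and 47.6 CPM in the E2 libraries, against 42.1, 43.4 and 42.2 CPM in the vehicle libraries. The groups did not overlap, which held for 41.2% of all genes, and Emx2os was 1.11-fold higher with E2 (log2 fold change 0.15 ± 0.039 SE, adjusted p = 0.00114, edgeR). The count of Emx2os divided by that of Emx2 was 0.405 ± 0.0125 with E2 and 0.336 ± 0.0121 with vehicle (SD, n = 3 each). This ratio, formed after the values were seen, is given without a test.

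With BMP2, Emx2 stood at 125, 127 and 128 CPM, and BMP2 and vehicle overlapped (127 ± 1.46 CPM with BMP2 and 127 ± 2.29 with vehicle). The log2 fold change in BMP2 against vehicle was 0.0039 ± 0.026 (SE, no test), with a 95% interval of -0.048 to 0.055. In BMP2 against E2, which shares the BMP2 libraries with the comparison above, Emx2 was 1.09-fold higher (127 ± 1.46 CPM with BMP2 and 117 ± 5.36 with E2, log2 fold change 0.12 ± 0.026, adjusted p = 6.28e-05, edgeR), 1 of 3 members tested beside 28.2% of all genes called. The BMP2 and E2 libraries of Emx2 did not overlap, as for 39.6% of all genes. Emx2os had 39.5, 40.6 and 40.3 CPM in the BMP2 libraries, below all libraries of the other groups. Groups did not overlap for 28.0% of all genes in BMP2 against vehicle and for 39.6% in BMP2 against E2. Emx2os was lower in BMP2 against E2 (log2 fold change -0.24 ± 0.039, adjusted p = 2.37e-07, edgeR) and did not pass in BMP2 against vehicle (-0.085 ± 0.040, adjusted p = 0.148, edgeR). The ratio of Emx2os to Emx2 counts was 0.316 ± 0.00244 with BMP2.

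**Figure D2:**
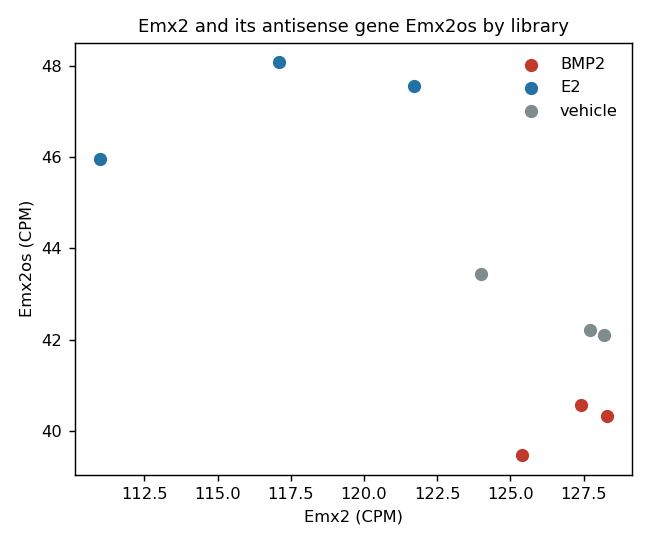
CPM of Emx2os against CPM of Emx2, 1 point per library, coloured by group (axes do not start at 0). The 3 E2 libraries lie at lower Emx2 and higher Emx2os than the 3 BMP2 and the 3 vehicle libraries.

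Cdh16, on chromosome 8 from 104601911 to 104624396 on the minus strand, was the member that differed most between groups, and this difference is part of why it was chosen. It had 17, 21 and 10 counts in the BMP2 libraries, 31, 35 and 22 in the E2 libraries and 46, 33 and 36 in the vehicle libraries. In CPM the BMP2 libraries (0.498, 0.626 and 0.290) lay below all E2 libraries (1.02, 1.11 and 0.695) and all vehicle libraries (1.34, 1.07 and 1.11), and E2 overlapped vehicle. The mean was 0.471 ± 0.169 CPM with BMP2, 0.943 ± 0.219 with E2 and 1.18 ± 0.148 with vehicle. Described without a test, the log2 fold change was -1.32 ± 0.28 (SE) in BMP2 against vehicle, -0.32 ± 0.25 in E2 against vehicle and -0.996 ± 0.29 in BMP2 against E2. Leaving out 1 library at a time, the first of these ranged from -1.57 to -1.07. Of all genes, 13.7% were called in BMP2 against vehicle and 28.0% had groups that did not overlap, beside 39.6% without overlap in BMP2 against E2. These 3 comparisons share libraries and are not independent of each other. In whole tissue, fewer cells of a type and less RNA per cell cannot be told apart.

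**Figure D3:**
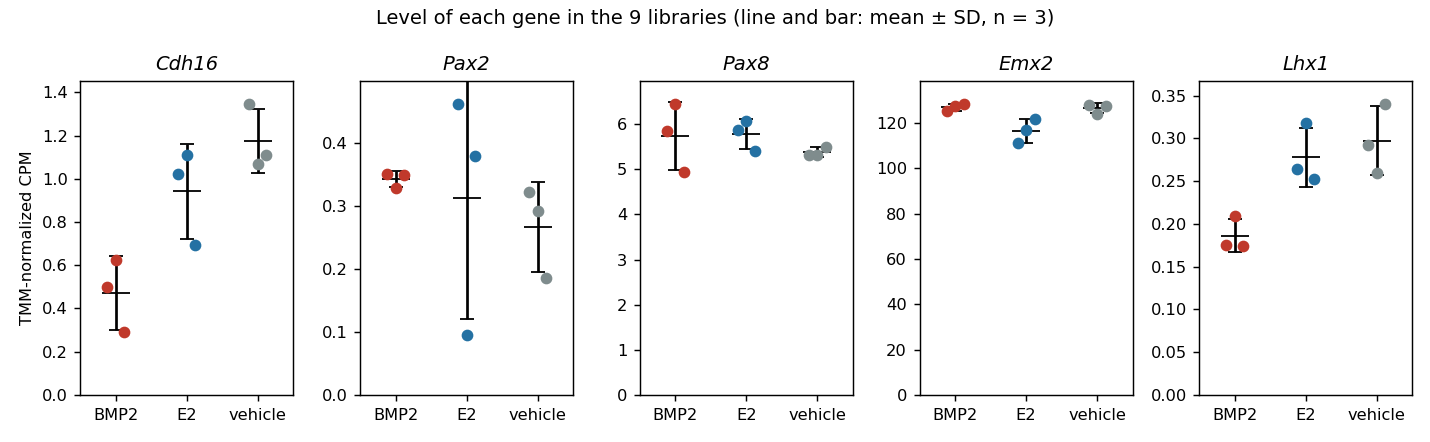
CPM of each member in the 9 libraries, with the mean and SD of each group as a line and bar (n = 3 each) and axes that start at 0. The BMP2 libraries of Cdh16 and Lhx1 lie below the other groups, the E2 libraries of Emx2 lie below the other groups, and the groups of Pax8 overlap.

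**Figure D4:**
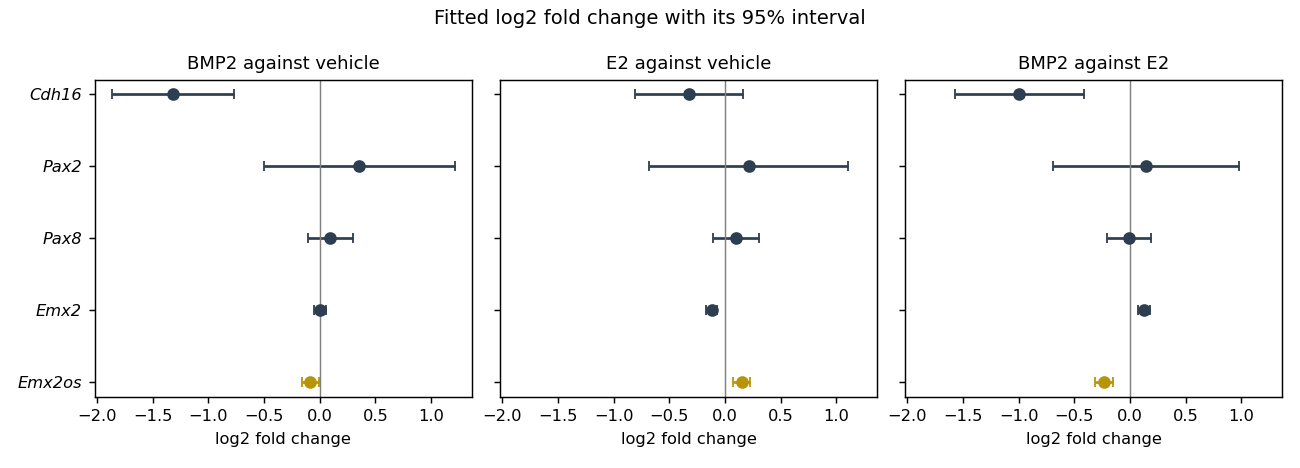
Log2 fold change with its 95% interval from the edgeR fit for the 4 members that passed the filter and for Emx2os, in each comparison. The intervals of Pax2 and Pax8 include 0 in E2 against vehicle and in BMP2 against E2, BMP2 against vehicle is drawn as a description, those of Emx2 and Emx2os are short and lie on opposite sides of 0 in E2 against vehicle, and Cdh16, drawn as a description, has the lowest point where BMP2 is compared.

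Across the 9 libraries the members did not rise and fall as a set. On log2 CPM with an offset of 0.1, Cdh16 and Lhx1 had a Pearson correlation of 0.896, and the other 9 pairs ranged from -0.577 to 0.188. Points in these correlations share library, depth and treatment group, and Lhx1 varied between 6 and 11 counts, so they serve as a description. For the 4 members that passed the filter, the 3 most like genes over the 9 libraries were taken by Pearson correlation of log2 CPM. Other members and predicted genes were left out of the candidates. None of these most like genes was a nephric gene listed here, which was likely beforehand with so few places among 16360 genes. For Cdh16 they were Gin1 (0.979), Tuba1a (0.950), a tubulin gene, and Tmem256 (0.938). For Emx2 they were Plagl2 (0.974), a zinc-finger gene, Degs1 (0.970), a sphingolipid desaturase gene, and Gucy1a2 (0.964), a guanylate cyclase subunit gene. For Pax8 they included Ccdc22 (0.988) and Zfp120 (0.898), and for Pax2 they were Ctnnbl1 (0.948), AU022751 (0.919) and Snx33 (0.918). The log2 fold change of Gin1 in BMP2 against vehicle was -0.14, beside -1.32 for Cdh16. With Spearman's measure no gene of the Cdh16 and Emx2 trios stayed among the leading 3.

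Of the other regulators of the nephric duct and tubules, 16 of 22 passed the filter. Of these 16, 1 rose, 2 fell and 13 did not pass with BMP2 against vehicle, where 6.84% of all genes rose and 6.85% fell. Gata3, a zinc-finger gene of the mesonephric duct, fell with BMP2 to 11.3 ± 0.614 CPM, against 15.1 ± 0.239 CPM with vehicle (log2 fold change -0.41 ± 0.069, adjusted p = 1.15e-06, edgeR). Sall1, a zinc-finger gene of kidney mesenchyme, also fell with BMP2 (log2 fold change -0.18 ± 0.055, adjusted p = 0.0138, edgeR), and Wnt4, a signal that kidney tubules and the ovary both use, rose (0.076 ± 0.026, adjusted p = 0.0366, edgeR). DESeq2 called neither Sall1 (adjusted p = 0.0513) nor Wnt4 (adjusted p = 0.0918). In edgeR the call of Sall1 was lost without the first BMP2 library (adjusted p = 0.109) or the first vehicle library (0.0548). That of Wnt4 was lost without any 1 BMP2 library and without the vehicle libraries of replicate 1 or 3, each left out alone (adjusted p = 0.0618 to 0.209, edgeR). The median of the 16 log2 fold changes was -0.067, beside -0.0015 over all genes tested.

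With E2 against vehicle, 2 of these regulators rose, 4 fell and 10 did not pass, where 15.8% of all genes rose and 16.5% fell. Gata3 fell to 7.60 ± 0.370 CPM with E2, 1.98-fold lower than with vehicle (log2 fold change -0.99 ± 0.076, adjusted p = 3.53e-24, edgeR). Sall1 rose to 43.8 ± 1.65 CPM with E2, against 19.7 ± 0.239 CPM with vehicle (log2 fold change 1.15 ± 0.048, adjusted p = 1.11e-48, edgeR). Wnt4 rose 1.34-fold (log2 fold change 0.43 ± 0.026, adjusted p = 9.99e-33, edgeR), and Tfcp2l1, a regulator of collecting duct cells, was 1.23-fold lower (log2 fold change -0.30 ± 0.041, adjusted p = 4.14e-10, edgeR). The list median was -0.11, beside -0.0026 over all genes tested. The regulators thus went both ways, and the fold changes of Sall1 and Gata3 were larger than those of the 3 members tested.

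Of 24 genes of differentiated nephric epithelium, 16 passed the filter. With BMP2 against vehicle, 1 rose, 0 fell and 15 did not pass, where 6.84% of all genes rose and 6.85% fell. The gene that rose was Bsnd, a chloride channel subunit gene, at 0.569 ± 0.200 CPM with BMP2 and 0.259 ± 0.0726 CPM with vehicle (log2 fold change 1.13 ± 0.39, adjusted p = 0.0381, edgeR). It had 12, 25 and 21 counts in the BMP2 libraries, 6, 9 and 10 with vehicle and 2, 2 and 9 with E2. Bsnd thus passed the filter on low counts through the BMP2 libraries, where it was high, and its call carries little weight. The call was lost without that filter (adjusted p = 0.0529, edgeR), and DESeq2 called 0 genes of the list higher. In edgeR the call was also lost without the second BMP2 library (adjusted p = 0.221) and without BMP2 replicate 3, vehicle replicate 1 or vehicle replicate 2 (0.120, 0.192 and 0.0581). With E2 against vehicle, 1 rose, 4 fell and 11 did not pass, where 15.8% of all genes rose and 16.5% fell. Calb1, a calcium-binding protein gene, rose (log2 fold change 0.14 ± 0.035, adjusted p = 0.000422, edgeR), while Spp1, the osteopontin gene (-0.28 ± 0.053, adjusted p = 5.36e-06, edgeR), and Lrp2, an endocytic receptor gene (-0.32 ± 0.068, adjusted p = 4.2e-05, edgeR), fell. The list medians were -0.077 with BMP2 and -0.29 with E2. The summed level of the list overlapped between groups, at 130 to 136 CPM with BMP2, 129 to 134 with E2 and 133 to 135 with vehicle, while 8 of the 24 genes were below the filter. Calb1 weighed most in this sum, at 57.9 CPM with BMP2, 62.0 with E2 and 56.1 with vehicle, so the sum says little of the other genes.

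Epithelial genes that are not particular to the mesonephros moved beside these values. Over all genes tested, 6.84% rose and 6.85% fell with BMP2, and 15.8% rose and 16.5% fell with E2. Of 10 genes of ovarian surface epithelium and mesothelium, 9 fell and 0 rose with BMP2 and 10 fell with E2. Their summed level was 630 to 641 CPM with BMP2 and 504 to 515 CPM with E2, against 715 to 743 CPM with vehicle, with no overlap between groups and none of the 10 at 0. Of the keratin genes of simple epithelia, Krt8 had a log2 fold change of -0.22 with BMP2 and -0.63 with E2, and Krt18 one of -0.21 with BMP2 and -0.96 with E2. Krt19, a further keratin gene, had -0.21 with BMP2 and -0.45 with E2, and Upk3b, a mesothelial uroplakin gene, -0.15 with BMP2 and -0.43 with E2, and all 4 genes passed in both comparisons. Their part in the values of Cdh16, Emx2 and Gata3 was not tested. Among 17 genes of simple epithelium, 1 rose and 1 fell with BMP2, and 2 rose and 6 fell with E2. Epcam, an adhesion gene, stood at 30.02 CPM with E2 and 48.1 CPM with vehicle (log2 fold change -0.68 ± 0.042, adjusted p = 6.9e-32, edgeR) but did not pass with BMP2 (-0.056 ± 0.039, adjusted p = 0.389, edgeR). Spint2, a protease inhibitor gene, fell with E2 (-0.20 ± 0.029, adjusted p = 2.97e-09, edgeR) and did not pass with BMP2 (-0.070 ± 0.028, adjusted p = 0.0817, edgeR). Esrp1, a splicing factor gene of epithelia, rose in both comparisons (0.31 with BMP2 and 0.40 with E2), which share the vehicle libraries.

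The counts of the next 3 lists stand beside 6.84% of all genes higher and 6.85% lower with BMP2. With E2 these shares were 15.8% and 16.5%. Of 9 genes of Müllerian duct and oviduct, 1 fell with BMP2 and 1 fell with E2. In both cases it was Wnt5a, a signalling gene also made in mesenchyme (log2 fold changes -0.19 and -0.23). Dach1 (-0.0067 with BMP2 and -0.024 with E2) and Msx2 (-0.084 with BMP2 and 0.010 with E2), transcription factor genes of the list, did not pass. Of 7 regulators of the gonadal ridge, the tissue in which Emx2 is also expressed, 1 rose and 1 fell with BMP2, and 3 rose and 1 fell with E2. Nr5a1, a regulator of gonadal and steroidogenic cells, rose with E2 (log2 fold change 0.25 ± 0.022, adjusted p = 3.19e-19, edgeR), as did Wt1 (0.078), needed for gonad formation in mice, and Gata4 (0.17). Gata4 also rose with BMP2 (0.068), a call lost without the second BMP2 library (adjusted p = 0.0773, edgeR), while Lhx9 fell with BMP2 (-0.18) and E2 (-0.22). The summed level of these 7 genes was 1008 to 1016 CPM with BMP2, 1092 to 1113 with E2 and 1034 to 1045 with vehicle. Of 5 genes of mesonephric mesenchyme tested, 0 rose and 1 fell with BMP2, and 1 rose and 2 fell with E2. Pdgfra, a receptor gene of mesenchyme in general, fell with E2 (log2 fold change -0.30 ± 0.022, adjusted p = 9.28e-26, edgeR). Tcf21, a transcription factor gene of kidney and gonad mesenchyme, made the call with BMP2 (-0.11 ± 0.039, adjusted p = 0.0487, edgeR), which was lost in 12 alternatives, among them DESeq2 (adjusted p = 0.157) and leaving out any 1 library but the last vehicle one (0.0524 to 0.224, edgeR). With E2, Tcf21 rose (0.10 ± 0.039, adjusted p = 0.0314, edgeR), but not in DESeq2 (adjusted p = 0.0928) or without vehicle replicate 3 (0.276) or E2 replicate 1 (0.144). Nr2f2, a nuclear receptor gene of mesenchyme, was called lower with E2 (-0.099 ± 0.040, adjusted p = 0.0477, edgeR), and this was lost in 10 alternatives (adjusted p = 0.0520 to 0.366, DESeq2 among them at 0.148). DESeq2 thus called 0 of the list with BMP2, and with E2 called 0 higher and 1 lower.

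**Figure D5:**
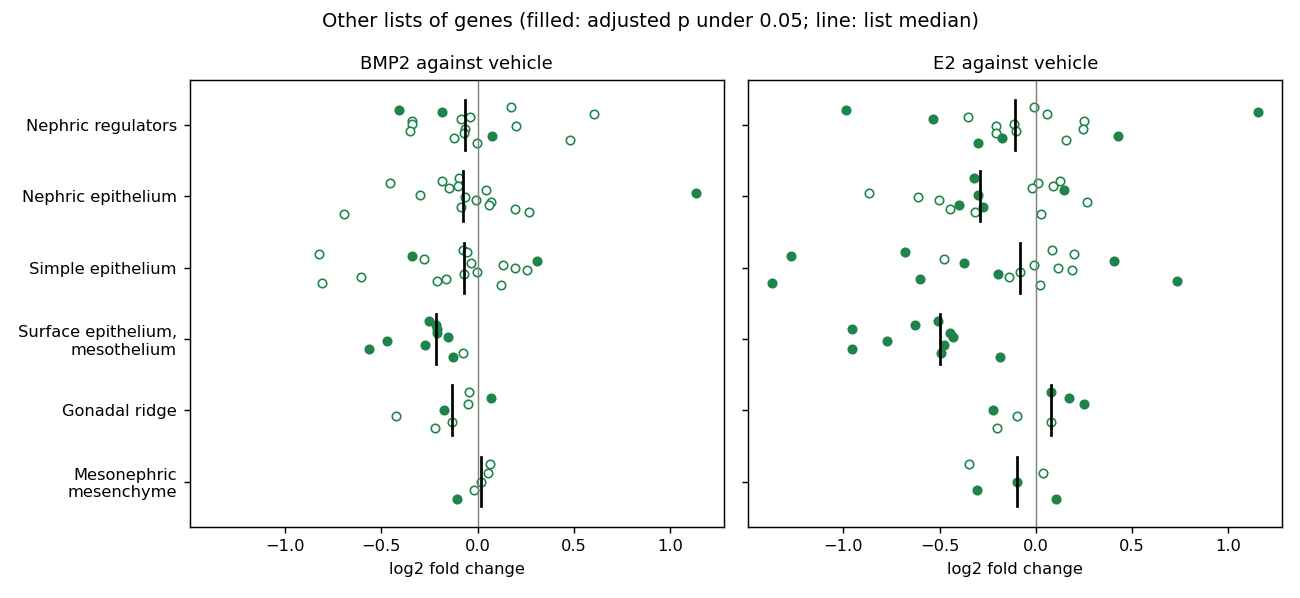
Log2 fold change of each tested gene of 6 other lists in BMP2 against vehicle and in E2 against vehicle, with filled points for an adjusted p under 0.05 and a line at the list median. Genes of surface epithelium and mesothelium all lie below 0, whereas nephric regulators lie on both sides, with Sall1 at 1.15 and Gata3 at -0.99 with E2.

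Of 8 cofactor genes of the members' proteins tested, 3 rose and 0 fell with BMP2, and 3 rose and 1 fell with E2. Kmt2d, a histone methyltransferase gene listed as Mll2 in the files, had log2 fold changes of 0.10 with BMP2 and 0.20 with E2. Rlim, a ubiquitin ligase gene that acts on LIM cofactors, had 0.086 with BMP2 and 0.052 with E2, and the E2 call was lost in DESeq2 (adjusted p = 0.0560) and without vehicle replicate 1 or 2 or E2 replicate 1 or 3 (0.0599 to 0.246, edgeR). Ssbp3, a partner gene of LIM-domain binding proteins, rose with E2 (0.17 ± 0.024, adjusted p = 6.83e-10, edgeR) and did not pass with BMP2 (0.029 ± 0.024, adjusted p = 0.486, edgeR). Ldb2, a gene for a LIM-domain binding protein, fell with E2 to 19.9 CPM, against 31.8 CPM with vehicle (log2 fold change -0.67 ± 0.050, adjusted p = 5.21e-25, edgeR).

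RefSeq promoter windows, 250 bases before to 50 after a start, were at hand for 4 members in 6 windows. The full palindromic oestrogen response element was in 0 of the 6 windows and in 0.0707% of all 32544 windows, both strands read. One arm of it, GGTCA, was found in Lhx1 alone (40.5% of all windows), the SMAD box GTCTAGAC in 1 window of Pax2 (0.215%) and the GC-rich SMAD site GGCGCC in 1 window each of Emx2 and Pax2 (11.9%). A match describes letters in a window and does not show binding, and no match says nothing of sites elsewhere.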

How the data were processed

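The authors deposited raw read counts, as whole numbers, in 1 table for each library. Per the submitters' processing notes, TopHat2, HTSeq and DESeq2 and the build mm10 were used, while neither annotation nor strand setting is given. Each table holds 23420 genes and 5 summary rows (38.2% to 39.7% of a library's total), which were left out. edgeR 4.0.16 (R 4.3.3) served for all tests on counts: filterByExpr (minimum count 10, minimum total 15; 16360 genes), TMM scaling, 1 robust quasi-likelihood fit with a mean per group on all 9 libraries (6 residual degrees of freedom), Benjamini-Hochberg adjustment over all genes tested, and calls at an adjusted p under 0.05. The fit was also run on simulated counts, with the same spread for all genes and changes only in genes of at least 1 CPM. That run does not cover Pax2, Cdh16 and Lhx1, which averaged below 1 CPM, and no result of it is used here. In the fit to the deposited counts, the spread of each gene was moderated by that of the other genes tested. Its p-values and intervals therefore rest on more than the 6 residual degrees of freedom. The SE was taken from the fold change and its F statistic (absolute value over the root of F). Replicate libraries were not copies of each other, with a chi-square per gene of 1.51 to 2.37 between them. That value cannot tell technical from biological replicates. The common coefficient of variation of the fit, beyond counting error, was 1.87%. Exon lengths and coordinates are GENCODE vM21 on GRCm38. The members and gene lists were chosen with earlier results of these data known, so the tests of list genes may not be independent of those results. From each list, the 3 most abundant genes and, per comparison, the called gene with the smallest p were named, as were paralogs and antisense genes and the 3 genes most correlated with each member, of which 1 is not reported here. DESeq2 1.42.0 and other settings were run as alternatives.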

Additional observations from a re-analysis of the deposited data

How the results depend on the processing

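The call of Emx2 held in all 15 alternatives of E2 against vehicle (log2 fold change -0.15 to -0.085, adjusted p at most 0.0189) and of BMP2 against E2 (0.089 to 0.15, at most 0.0140), and that of Emx2os likewise (0.14 to 0.17 and -0.25 to -0.22). Some of the 15 left out a library of the group not compared, which enters only through the shared fit and so challenges the call little. Pax2 and Pax8 passed in none. Leaving out 1 library at a time, Pax2 ranged from -0.16 to 0.65 in E2 against vehicle and from -0.29 to 0.52 in BMP2 against E2, and Pax8 from -0.099 to 0.088 in BMP2 against E2, so their signs turned. Pax2 turned without the first E2 library (E2 against vehicle) and without the second (BMP2 against E2). Replicate numbers did not pair libraries (correlations -0.0311 to 0.0271), and the replicate block changed no call of a member: Emx2 had -0.12 (adjusted p = 1.82e-05) in E2 against vehicle and 0.12 (9.67e-06) in BMP2 against E2. DESeq2 called 1386 genes in BMP2 against vehicle, 710 higher and 676 lower, in place of 2239, 1119 and 1120. For the other lists, alternatives were counted only for genes named by abundance or smallest p, Emx2os aside, in the 70 gene comparisons where they were called. Of these 1047 alternatives, 981 kept the call, 66 lost it and 0 changed sign. Called genes that were not named this way, which include weaker calls, are not in this count. Among the 3 genes most like each member, at most 1 remained with Spearman's measure or with group means taken out. Depth limits Pax2 and Lhx1, and Pax2, Cdh16 and Lhx1 could not be fitted with a mean CPM of at least 1, where that filter removed them.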
